A study of Mus musculus with 60 samples.

Results

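TRBV5 and TRBV2 are 2 of the variable (V) gene segments from which mouse T cells build the beta chain of the T cell receptor (TCR). They are described here in donor CD4+ and CD8+ T cells of a mouse model of graft-versus-host disease (GVHD). Both were selected on their usage at day 6 after hematopoietic cell transplantation (HCT), which was lower in the gut than in the liver. The gut and liver values below are therefore a description and carry no test. Every clonotype listed under either V segment was taken, with any allele suffix dropped. In the CD4 table these were 5144 TRBV5 and 2446 TRBV2 clonotypes of 85775, among 28 listed V segments. In the CD8 table they were 3939 TRBV5 and 1448 TRBV2 clonotypes of 82447, among 26 listed V segments.

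Lethally irradiated wild-type BALB/c recipients were given T cell depleted bone marrow from wild-type C57BL/6 mice together with C57BL/6 donor T cells of 1 of 3 genotypes. The donors were wild type (WT), STAT3ko (floxed STAT3 with CD4-Cre, so that deletion follows CD4 promoter activity in T cells) or STAT3koPD-1ko (the same alleles on a germline PD-1-/- background). On day 6, sorted donor H-2Kb+ TCRβ+ CD4+ or CD8+ cells from the liver and the gut, pooled from 3 recipients per library, were sequenced for their TCR chains. Each table holds 15 libraries, made up of 1 donor library per genotype from before HCT and 2 liver and 2 gut libraries per genotype from day 6. The donor libraries are labelled as spleen, and their titles call the cells naive. All recipients shared the irradiation, the BALB/c background and the wild-type bone marrow. The study's methods describe 2 batches, each combined from 3 mice, but no label ties a library to a batch. Each p-value measures the spread between these libraries, and any batch difference is part of that spread. No label says whether a liver and a gut library came from the same recipients, and the tests count them as separate units.

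A TCR beta chain is assembled by joining a V, a diversity (D) and a joining (J) segment. The V segment encodes the first and second complementarity-determining regions (CDR1 and CDR2), which mostly contact the MHC molecule, and the start of CDR3. CDR3 spans the V-D-J junction, where bases are trimmed and added, and it mostly contacts the peptide. V segment usage in a T cell population reflects both the rate of rearrangement and selection in the thymus. It can shift when clones expand or when a superantigen binds the germline-encoded face of particular beta chains.

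TRBV2 and TRBV5 lie on the plus strand of chromosome 6 in GRCm38 (mm10), and TRBV1, TRBV3 and TRBV4 are their neighbours along the beta locus. TRBV2 spans chr6:41047340-41047995 and TRBV5 spans chr6:41062332-41062803, with 14336 bases between them, and each has 2 exons. The last 90 bases of exon 2 of each gene are shown because they carry the feature that ties the pair together. Capitals mark the coding bases that begin CDR3, from the conserved cysteine codon to the end of the segment. The TRBV5 stretch is chr6:41062714-41062803 and the TRBV2 stretch is chr6:41047906-41047995.
TRBV5: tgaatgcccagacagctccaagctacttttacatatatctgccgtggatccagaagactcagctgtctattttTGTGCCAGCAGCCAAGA
TRBV2: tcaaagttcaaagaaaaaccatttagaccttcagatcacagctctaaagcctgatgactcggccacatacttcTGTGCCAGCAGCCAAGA
The capitalised 17 bases were identical. Across the 90 bases shown, 54 matched, and over exon 2 as a whole the identity was 64.3% (191 of 297 aligned positions). TRBV5 and TRBV2 were the only 2 of 35 annotated TRBV genes and pseudogenes with this CDR3 start.

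V labels were not stable between the tables, for the members or for segments in general. The tables list each CDR3 amino acid sequence once, with a single V label. Of 17941 CDR3s listed in both the CD4 and the CD8 table, 6335 (35.3%) had the same V label in both. Of the 417 CD4 TRBV2 CDR3s that were also in the CD8 table, 71 (17.03%) were TRBV2 there, 149 (35.7%) were TRBV5 and 197 were other segments. Of the 1149 CD4 TRBV5 CDR3s also in the CD8 table, 406 (35.3%) were TRBV5, 122 (10.6%) were TRBV2 and 621 were other segments. The part of the shared CDR3 start in these disagreements was not tested. Read from the CD8 side, 122 of 237 shared TRBV2 CDR3s (51.5%) and 149 of 833 shared TRBV5 CDR3s (17.9%) carried the label of the other member in the CD4 table, and 44 and 278 that of other segments. CDR3s labelled differently in the other table took a larger mean share of the members' frequency in gut than in liver. For CD4 TRBV5 the share was 23.8% ± 4.78 in liver and 33.1% ± 6.87 in gut, and for CD8 TRBV2 it was 15.5% ± 3.98 and 38.9% ± 16.1 (SD, n = 6 libraries each). For the other segments it was 25.0% ± 1.25 in liver and 24.5% ± 6.34 in gut in CD4, and 28.3% ± 1.16 and 35.6% ± 7.51 in CD8, so in CD8 it was higher in the gut for them as well. Gut to liver ratios recomputed without CDR3s labelled differently in the other table are given below, with no test. The label of the pair as a whole was close to exclusive where the junction kept the full germline start. Of 3370 CD4 clonotypes with all 17 bases, 99.8% were labelled TRBV5 or TRBV2, and of 2426 in CD8, 99.4% were.

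Usage is the summed frequency of a segment's clonotypes as a percentage of the summed frequency of all listed clonotypes in that library. The listed clonotypes covered 81.5% to 98.4% of the deposited frequency of a library, except in the gut libraries with replicate number 2, where they covered 47.8% to 58.0%. Read depth is not listed, since the tables hold fractions, and no counting error is given. The CD4 and CD8 tables were made separately, and their levels are set side by side without a test. No 2 libraries looked like repeats of 1 library, since the highest correlation of clonotype frequencies was 0.622 in CD4 and 0.619 in CD8.

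Among CD4+ T cells TRBV5 usage was lower in every gut library than in every liver library. Before HCT, CD4 TRBV5 usage was 8.42% in the WT, 9.46% in the STAT3ko and 11.98% in the STAT3koPD-1ko donor library. In the 6 liver libraries it ran from 7.27% through a median of 9.25% to 10.79%, with a mean of 9.05% ± 1.42 (SD). In the 6 gut libraries it ran from 3.64% through a median of 4.59% to 5.13%, with a mean of 4.46% ± 0.69 (SD). The liver libraries overlapped with the donors, and the gut libraries overlapped with neither. The gut to liver log2 ratio of the means was -1.02.

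CD4 TRBV2 was used less but followed the same order. Before HCT its usage was 2.95% in the WT, 2.03% in the STAT3ko and 2.72% in the STAT3koPD-1ko library. It ran from 1.71% through a median of 2.36% to 2.67% in the liver (2.28% ± 0.39, SD, n = 6) and from 1.08% through a median of 1.198% to 1.63% in the gut (1.27% ± 0.21, SD, n = 6). The highest gut library stayed below the lowest liver library, and the log2 ratio was -0.84. Summed, which removes the split between their labels, the pair made up 11.3% ± 1.72 of CD4 liver usage and 5.73% ± 0.74 of CD4 gut usage, a log2 ratio of -0.98.

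**Figure D1:**
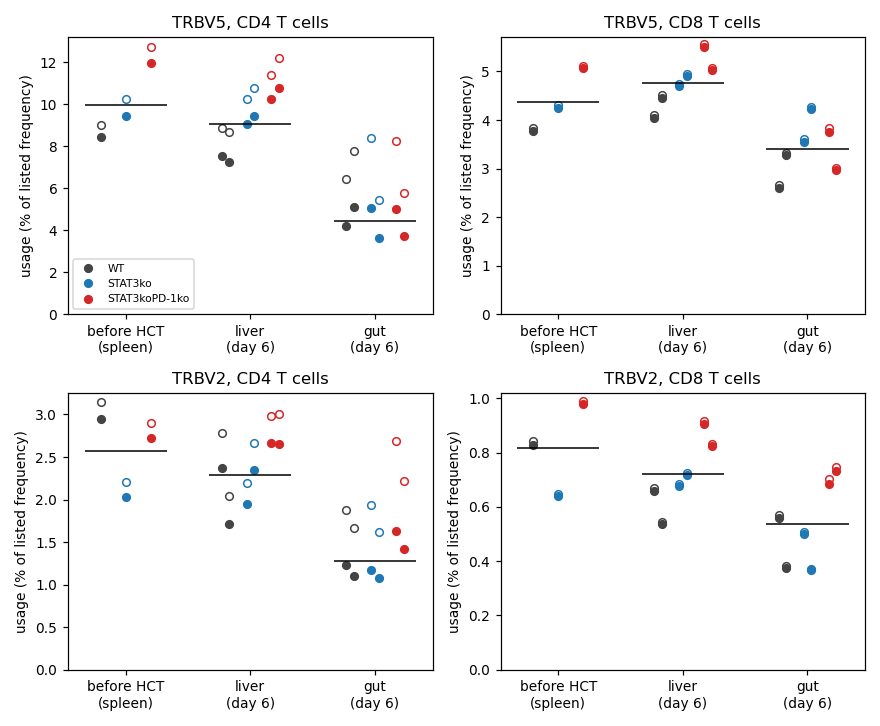
Usage of TRBV5 and TRBV2, in percent of listed frequency, in each library of the CD4 and CD8 tables, by site (before HCT, liver, gut). Filled points use all listed clonotypes, open points leave TRBV26 and TRBV23 out of the total, and bars mark the site mean of the filled points. The 6 CD4 gut libraries lie between 3.64% and 5.13% for TRBV5, below the lowest liver library at 7.27%.

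Usage is a share, so it falls when another segment rises. In CD4, TRBV26 took 4.86% ± 0.71 of usage before HCT (n = 3), 9.09% ± 1.83 in the liver and 25.4% ± 1.76 in the gut (SD, n = 6 each), and TRBV23 took 3.70% in the liver and 10.6% in the gut. With both left out of the total, CD4 TRBV5 usage was 10.4% ± 1.41 in the liver, from 8.67% to 12.2%, and 7.01% ± 1.29 in the gut, from 5.45% to 8.40%. The groups still did not overlap, and the log2 ratio was -0.56. CD4 TRBV2 usage became 2.61% ± 0.41 in the liver, from 2.04% to 3.01%, and 2.00% ± 0.40 in the gut, from 1.62% to 2.69%. These groups overlapped, and the log2 ratio was -0.38.

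In CD8+ T cells the levels were lower and the gap between the tissues was narrower. Before HCT, CD8 TRBV5 usage was 3.78% in the WT, 4.25% in the STAT3ko and 5.06% in the STAT3koPD-1ko library. It ran from 4.03% through a median of 4.80% to 5.50% in the liver (4.77% ± 0.50, SD, n = 6) and from 2.60% through a median of 3.41% to 4.22% in the gut (3.39% ± 0.58, SD, n = 6). The highest gut library, of STAT3ko cells, stood above the lowest liver library, of WT cells. CD8 TRBV2 usage was 0.829%, 0.638% and 0.978% in the WT, STAT3ko and STAT3koPD-1ko donor libraries. It ran from 0.537% through a median of 0.696% to 0.905% in the liver and from 0.367% through a median of 0.528% to 0.733% in the gut, and these groups overlapped too. The log2 ratios were -0.49 for TRBV5 and -0.42 for TRBV2. TRBV26 took a mean of 0.930% of CD8 liver and 1.40% of CD8 gut usage, and leaving TRBV26 and TRBV23 out of the total moved neither CD8 ratio by more than the spread between libraries.

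Among the segments that averaged 0.5% usage or more, TRBV5 had the lowest gut to liver ratio of 21 in CD4 and the next to lowest of 18 in CD8, after TRBV20. TRBV2 ranked 5 from the lowest in CD4 and 4 in CD8. The median log2 ratio over the segments was -0.44 in CD4, -0.05 in CD4 with TRBV26 and TRBV23 left out of the total, and 0.00041 in CD8. In CD4, all gut libraries were below all liver libraries for 5 of 21 segments (23.8%), which were TRBV5, TRBV2, TRBV13-2, TRBV14 and TRBV16. With TRBV26 and TRBV23 left out this held for TRBV5 alone of 19. In CD8 it held for none of 18 segments (0%). TRBV3 and TRBV4, which lie between the members in the locus, had log2 ratios of 0.10 and -0.37 in CD4 and -0.0061 and 0.0069 in CD8, and TRBV1, before them, had -0.66 and -0.49. The members were picked by this ranking, so their places in it are no evidence about them.

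**Figure D2:**
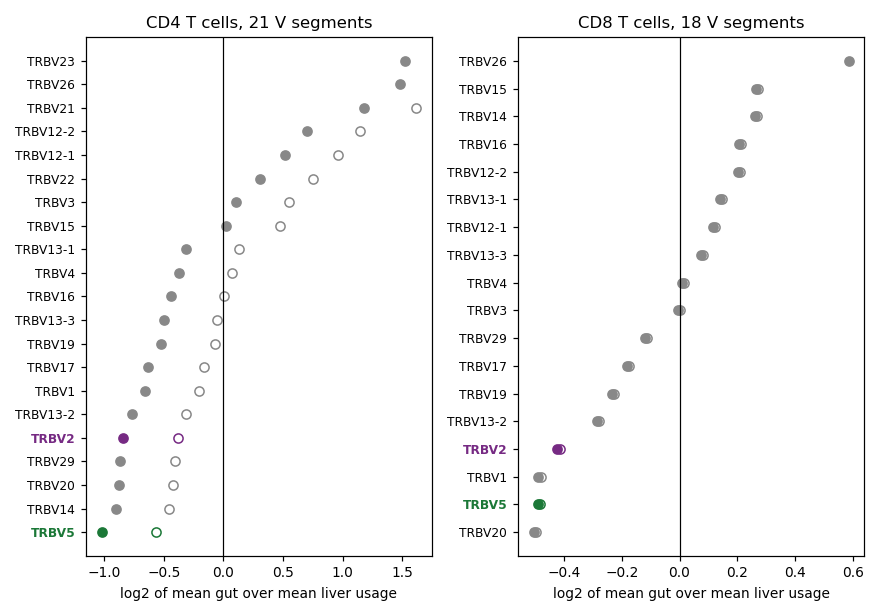
Log2 ratio of mean gut to mean liver usage for each TRBV segment tested, in CD4 and CD8, with filled points for the full total and open points with TRBV26 and TRBV23 left out of it. TRBV5 has the lowest CD4 value, at -1.02, and rises to -0.56 when TRBV26 and TRBV23 are left out.

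Frequency and number of clonotypes gave different sizes of gap. When each listed clonotype was counted once, whatever its frequency, the gut to liver log2 ratio was -0.32 for CD4 TRBV5, -0.61 for CD4 TRBV2, -0.19 for CD8 TRBV5 and -0.50 for CD8 TRBV2. TRBV5 made up 6.18% ± 0.36 of CD4 clonotypes in the liver and 4.96% ± 0.34 in the gut (SD, n = 6 each). When usage was taken as a share of all deposited frequency, listed or not, the ratios were -1.46, -1.28, -0.90 and -0.81 in the same order. When CDR3s labelled differently in the other table were left out, they were -1.21, -1.07, -0.46 and -0.75. All of these remained below 0, in the contrast that chose the members, so their sign is no evidence about them.

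The gut was lower than the liver in each genotype. The CD4 TRBV5 log2 ratio was -0.67 in WT, -1.09 in STAT3ko and -1.27 in STAT3koPD-1ko cells, and the liver means behind these were 7.40%, 9.25% and 10.5%, against gut means of 4.66%, 4.36% and 4.35%. In the same order the ratios were -0.84, -0.84 and -1.04 between the libraries numbered 1, and -0.50, -1.38 and -1.54 between those numbered 2, whose gut libraries had the low listed share. For CD4 TRBV2 the ratios were -0.81, -0.93 and -0.80. In CD8 they were -0.53, -0.31 and -0.65 for TRBV5 and -0.36, -0.69 and -0.28 for TRBV2, again in the order WT, STAT3ko and STAT3koPD-1ko. Whether the gut to liver difference itself varied with genotype was tested with limma over all segments, on log2(usage in percent + 0.1). For CD4 TRBV5 the difference of STAT3koPD-1ko from WT was -0.60 ± 0.31 (SE) and did not pass (adjusted p = 0.973). None of the 3 genotype pairs gave a call for any segment in either table by limma, with at most 1 segment at an unadjusted p under 0.05 in any pair.

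Against the donors, day 6 values are given as a description too, since the liver and gut libraries that make up day 6 are those that chose the members. The donor libraries are of spleen, so a change with time and a difference between tissues cannot be told apart here. In CD4, the mean of liver and gut differed from the donor level by a log2 value of -0.64 ± 0.14 (SE) for TRBV5 and of -0.56 ± 0.13 for TRBV2. By limma over all segments, 14 of 21 (66.7%) were past the threshold in this comparison, 5 higher and 9 lower, and nothing about the members is read from this share. With TRBV26 and TRBV23 left out of the total the values were -0.32 for TRBV5 and -0.26 for TRBV2. With the liver libraries alone as day 6 they were -0.13 and -0.16. In CD8, 2 of 18 segments (11.1%) were past the threshold, and neither was TRBV5 or TRBV2. The CD8 value was -0.12 ± 0.10 for TRBV5, and 0.13 with the liver libraries alone, and it was -0.35 ± 0.12 for TRBV2.

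The genotype comparisons do not rest on the contrast that chose the members. With the tissue as a term, no CD4 segment passed in any pair by limma. The percentage called was 0 of 21 for STAT3ko minus WT, for STAT3koPD-1ko minus STAT3ko and for STAT3koPD-1ko minus WT. At an unadjusted p under 0.05 the counts were 0, 4 and 6. CD4 TRBV5 differed by 0.11 ± 0.17 in STAT3ko minus WT (adjusted p = 0.864), 0.092 ± 0.17 in STAT3koPD-1ko minus STAT3ko (adjusted p = 0.802) and 0.20 ± 0.17 in STAT3koPD-1ko minus WT (adjusted p = 0.483). CD4 TRBV2 differed by 0.016 ± 0.13 (adjusted p = 0.978), 0.36 ± 0.13 (adjusted p = 0.194) and 0.37 ± 0.13 (adjusted p = 0.107) in the same order.

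In CD8, TRBV2 was the only 1 of 18 segments (5.56%) past the threshold in STAT3koPD-1ko minus WT. It was higher by 0.50 ± 0.13 on the log2 scale (adjusted p = 0.0351, limma). CD8 TRBV2 usage averaged 0.864% in STAT3koPD-1ko and 0.598% in WT liver, and 0.709% and 0.466% in gut (n = 2 libraries each). The 4 STAT3koPD-1ko libraries, from 0.686% to 0.905%, stood above the 4 WT libraries, from 0.376% to 0.659%. The STAT3koPD-1ko donor library also held more TRBV2 before HCT than the WT donor library, at 0.978% against 0.829%, with 1 library each and no test. The call was lost without the WT liver 1, WT liver 2, STAT3koPD-1ko liver 1, STAT3ko gut 1, STAT3koPD-1ko gut 1, WT gut 2 or STAT3koPD-1ko gut 2 library, with an adjusted p of up to 0.156. It was also lost with each clonotype counted once, at 0.13 (adjusted p = 0.947), as a share of all deposited frequency, at 0.42 (adjusted p = 0.924), with a pseudocount of 1, at 0.22 (adjusted p = 0.0708), and without CDR3s labelled differently in the other table, at 0.43 (adjusted p = 0.262). Over clonotypes listed in at least 3 libraries, CD8 TRBV2 fell under the usage filter and gave no value. The remaining CD8 genotype pairs called 0 of 18 segments (0%) by limma, with 1 segment at an unadjusted p under 0.05 in STAT3ko minus WT and 3 in STAT3koPD-1ko minus STAT3ko. CD8 TRBV2 was at 0.057 ± 0.13 in STAT3ko minus WT (adjusted p = 0.897) and 0.44 ± 0.13 in STAT3koPD-1ko minus STAT3ko (adjusted p = 0.0794). CD8 TRBV5 was at 0.28 ± 0.11 in STAT3ko minus WT (adjusted p = 0.546), -0.040 ± 0.11 in STAT3koPD-1ko minus STAT3ko (adjusted p = 0.823) and 0.24 ± 0.11 in STAT3koPD-1ko minus WT (adjusted p = 0.205).

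Mean clonotype frequency is a segment's summed frequency divided by its number of clonotypes. It holds the usage that chose the members, so it is described here without a test. TRBV2 clonotypes had a lower mean frequency than those of other segments in 12 of 12 day 6 libraries and in all 3 donor libraries of both tables. The mean log2 ratio over the day 6 libraries was -0.42 in CD4 and -1.08 in CD8, and over the donor libraries it was -0.39 and -1.05. In CD8 the day 6 mean frequencies were 0.00255% ± 0.000923 for TRBV2 and 0.00526% ± 0.00147 for other segments (SD, n = 12 libraries). For TRBV5 the day 6 log2 ratio was 0.20 in CD4 and -0.17 in CD8. The CD4 TRBV5 value averages libraries of opposite sign. Its log2 ratio was above 0 in all 6 liver libraries, with a mean of 0.58, and in the 3 donor libraries, with a mean of 0.53, and below 0 in 5 of 6 gut libraries, with a mean of -0.17.

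The larger member clonotypes were fewer in the gut, as a description of the selecting contrast. Clonotypes above 0.01% of all reads numbered 194 ± 39.1 per liver library for CD4 TRBV5, from 143 to 232, and 60.7 ± 12.7 per gut library, from 51 to 84 (SD, n = 6 each). For CD4 TRBV2 they numbered 46.5 ± 19.5, from 20 to 75, and 11.7 ± 2.66, from 7 to 15. For CD8 TRBV5 they numbered 125 ± 21.2, from 93 to 158, and 43.0 ± 11.1, from 32 to 59. For CD8 TRBV2 they numbered 12 ± 4.56 and 3.0 ± 2.97, and these counts overlapped. The gut also held fewer such clonotypes of all other segments, with 1229 ± 249 against 1744.5 ± 107 in CD4 and 1422 ± 324 against 2210 ± 136 in CD8. The largest frequency of any member clonotype in any library was 0.392%, for CD4 TRBV5 before HCT. The gut libraries with replicate number 2, whose listed share was low, listed a mean of 278 CD4 TRBV5 clonotypes, against 1185 in those with number 1. The CD4 donor libraries, with a mean listed share of 93.2%, listed a mean of 879. The part of the listed share in these counts was not tested.

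CDR3s of both members were longer than those of other segments once only CDR3s running from the conserved cysteine to a phenylalanine or tryptophan were compared. By this standard CD4 TRBV5 averaged 14.3 residues against 13.6, a difference of 0.64 ± 0.15 (SD), and CD4 TRBV2 was longer by 0.53 ± 0.17. CD8 TRBV5 averaged 14.1 residues against 13.4, a difference of 0.72 ± 0.097, and CD8 TRBV2 averaged 14.7 against 13.4, a difference of 1.28 ± 0.17. Member and other segments were compared within each of the 12 day 6 libraries by a two-sided exact sign-flip permutation test, with p-values adjusted over 16 tests of 4 features. Each difference held in 12 of 12 libraries (adjusted p = 0.000977, from a raw exact p of 0.000488, the smallest that 12 libraries allow). If liver and gut libraries share recipients, these p-values are too small. With all clonotypes, the CD8 differences were 0.46 and 1.04, and with each of these counted once the CD8 TRBV5 difference was -0.10 (adjusted p = 0.270, exact permutation test) and that of CD8 TRBV2 was 0.35 (adjusted p = 0.0067). The CD4 differences with all clonotypes turned to -3.16 for TRBV5 and -3.10 for TRBV2 (adjusted p = 0.000868 each). The other segments of the CD4 table include many listed CDR3s without those ends. Only 76.6% of other CD4 clonotypes ran from cysteine to phenylalanine or tryptophan, against 99.90% of TRBV5 and 99.96% of TRBV2, while in CD8 it was 96.2% of the others.

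**Figure D3:**
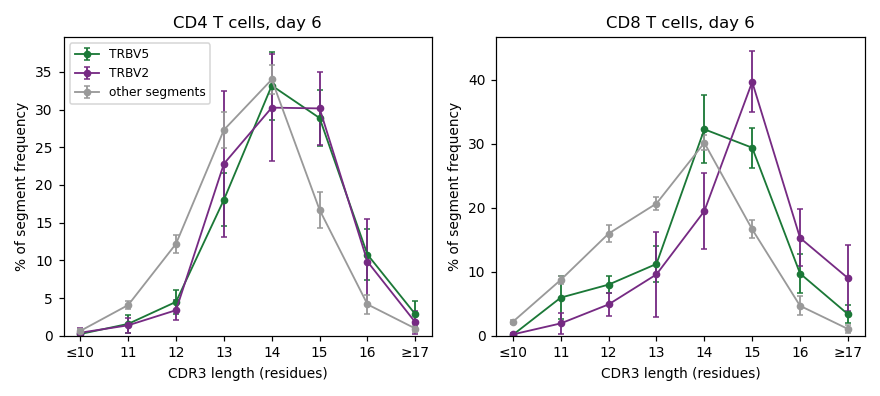
Share of each segment's frequency, in percent, by CDR3 length in residues, for TRBV5 (green), TRBV2 (purple) and the other segments (grey) in CD4 and CD8, over CDR3s from cysteine to phenylalanine or tryptophan. Points are means over 12 day 6 libraries with SD bars. CD8 TRBV2 peaks at 15 residues, with 39.6% of its frequency, and the other CD8 segments at 14 residues, with 30.1%.

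The length profiles show where the extra residues lie. In CD8, 39.6% ± 4.76 of TRBV2 frequency was in CDR3s of 15 residues and 15.3% ± 4.46 in those of 16, against 16.6% ± 1.41 and 4.67% ± 1.46 for other segments (SD, n = 12). CD4 TRBV5 had 33.2% ± 4.51 at 14 residues and 28.9% ± 3.73 at 15. Gut usage was below liver usage at every CD4 TRBV5 length, with the lowest ratios among the longest CDR3s. The log2 ratio was -0.18 at 10 residues or fewer, -1.11 at 11, -0.97 at 12, -0.80 at 13, -0.84 at 14, -1.12 at 15, -1.53 at 16 and -1.73 at 17 or more. The other CD4 segments also had their lowest ratios at these lengths, with -0.14 at 13 residues and -0.82 at 17 or more. For TRBV2 the ratio was above 0 at some lengths, at 0.76 in CD4 at 10 residues or fewer and at 0.67 in CD8 at 13 residues. The remaining TRBV2 lengths, and every CD8 TRBV5 length, were below 0.

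The bases listed between the end of V and the start of J numbered 8.19 ± 0.42 in CD4 TRBV5 and 7.13 ± 1.21 in CD4 TRBV2 (SD, n = 12 libraries). Over CDR3s from cysteine to phenylalanine or tryptophan, CD4 TRBV5 had 0.25 more such bases than other segments (adjusted p = 0.0367, exact permutation test) and CD8 TRBV5 had 0.30 more (adjusted p = 0.00434). With TRBV26 and TRBV23 left out of the other segments in place of that limit on the ends, the CD8 TRBV5 difference was 0.24 (adjusted p = 0.00781, exact permutation test), and that of CD4 TRBV5 was 0.12 and no longer passed (adjusted p = 0.321). CD4 TRBV2 had 0.84 fewer on average, listed as a difference of -0.84 (adjusted p = 0.000977, 12 of 12 libraries). CD8 TRBV2 stood at 0.29 (adjusted p = 0.199). Over all clonotypes every value was below 0, at -13.8 for CD4 TRBV5 and -14.3 for CD4 TRBV2 (adjusted p = 0.000868 each, exact permutation test), -0.69 for CD8 TRBV5 (adjusted p = 0.00156) and -0.67 for CD8 TRBV2 (adjusted p = 0.0247). The direction for TRBV5 in both tables, and for CD8 TRBV2, thus depended on which clonotypes were compared. Many junctions kept the whole germline start shown above. All 17 bases were kept by 42.3% of CD4 TRBV5, 48.5% of CD4 TRBV2, 37.5% of CD8 TRBV5 and 64.4% of CD8 TRBV2 clonotypes, and by 8 of 78185 other clonotypes in CD4 and 15 of 77060 in CD8.

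J segments fall into the TRBJ1 and TRBJ2 clusters, and the members leaned opposite ways in CD8. TRBJ2 made up 73.4% ± 2.31 of CD8 TRBV2 frequency against 69.7% ± 1.31 in other segments, higher by 3.65 points in 12 of 12 libraries (adjusted p = 0.000868, exact sign-flip permutation test). It made up 66.3% ± 4.98 of CD8 TRBV5 frequency against 69.9% ± 1.23, a difference of -3.61 points, lower in 10 of 12 libraries (adjusted p = 0.0199). The CD8 TRBV5 difference turned to 0.21 points with each clonotype counted once, and was -2.59 points (adjusted p = 0.101) without the 10 most frequent clonotypes of each library. In CD4 the TRBJ2 difference was -2.28 points for TRBV5 (adjusted p = 0.0943) and -0.79 points for TRBV2 (adjusted p = 0.805). The direction for CD4 TRBV5 depended on the weighting. It was below 0 past the threshold when STAT3ko liver 1 was left out (adjusted p = 0.0326) and over CDR3s from cysteine to phenylalanine or tryptophan, at -3.71 points (adjusted p = 0.0332). With each clonotype counted once it was 2.78 points above other segments (adjusted p = 0.0124).

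Differences at single J segments, given as values with no test, were widest for CD8 TRBV2. CD8 TRBV2 paired with TRBJ2-3 for 13.3% ± 6.30 of its frequency against 7.03% ± 0.838 in other segments, and with TRBJ2-5 for 11.7% ± 3.99 against 8.85% ± 0.577. It paired less with TRBJ2-7, at 18.7% ± 4.47 against 25.6% ± 1.48, and with TRBJ1-1, at 6.72% ± 3.09 against 13.2% ± 0.898. The TRBJ1-1 share was lower than that of other segments in all 12 libraries. CD8 TRBV5 leaned to TRBJ1-1 instead, at 17.01% ± 2.81 against 13.0% ± 0.942, higher in 11 of 12 libraries. CD4 TRBV5 paired more with TRBJ1-4, at 10.8% ± 2.75 against 7.42% ± 0.728, and less with TRBJ1-3, at 4.07% ± 2.22 against 7.10% ± 0.939. CD4 TRBV2 paired more with TRBJ2-5, at 15.2% ± 4.89 against 11.9% ± 1.34, and less with TRBJ2-7, at 14.4% ± 5.21 against 17.6% ± 1.39 (SD, n = 12 throughout).

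**Figure D4:**
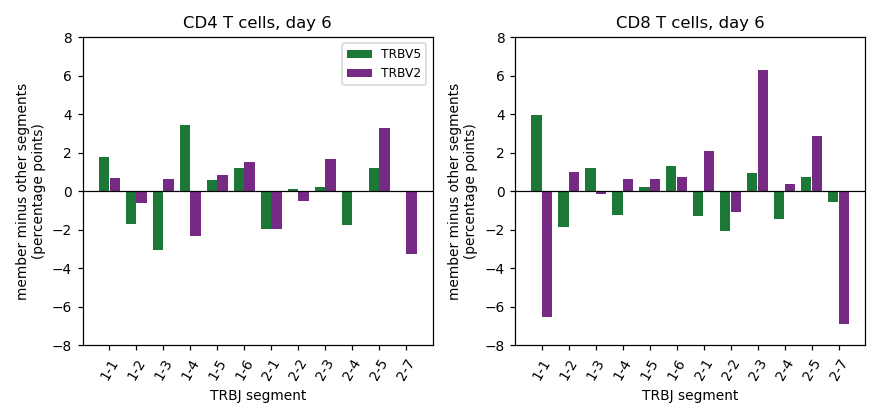
Difference between TRBV5 (green) or TRBV2 (purple) and the other segments in the share of frequency joined to each J segment, in CD4 and CD8. Bars are the mean of member minus other segments over 12 day 6 libraries, in percentage points. The bar of CD8 TRBV2 with TRBJ2-3 stands at 6.30 points.

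As a description of the selecting contrast, the lower gut usage was spread over J segments. The ratios use the full total, in which the median CD4 segment stood at -0.44, and were not recomputed without TRBV26 and TRBV23. Pairs of other segments were not counted. For CD4 TRBV5 all 12 V-J pairs had a gut to liver log2 ratio under 0, from -1.62 with TRBJ2-1 to -0.32 with TRBJ1-1. For CD4 TRBV2 all 12 were under 0 as well, from -1.93 with TRBJ1-2 to -0.13 with TRBJ1-1. In CD8, 11 of 12 were under 0 for each member, from -1.07 to 0.020 for TRBV5 and from -1.09 to 0.18 for TRBV2. The TRBJ2 share of CD4 TRBV5 frequency was 67.0% ± 3.98 in the liver, from 62.1% to 71.7%, and 58.0% ± 2.78 in the gut, from 54.8% to 60.7%. Other CD4 segments also held less TRBJ2 in the gut, at 66.7% ± 1.03 in the liver and 62.8% ± 0.819 in the gut. The 3 donor libraries held 70.0% ± 4.30 for TRBV5.

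**Figure D5:**
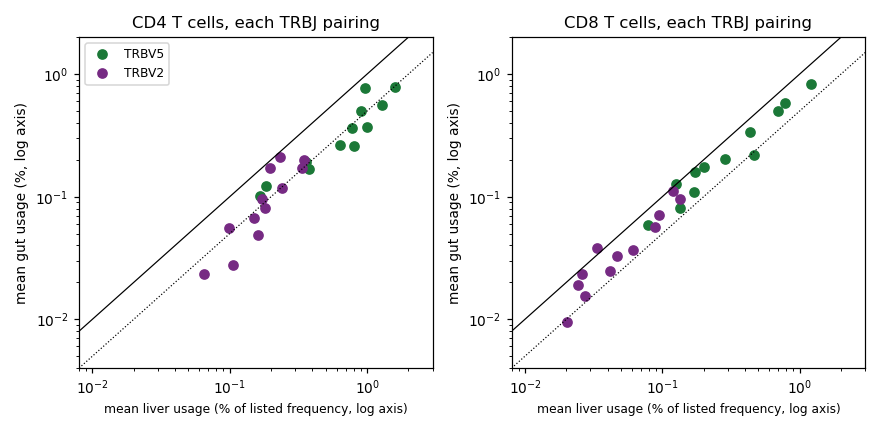
Mean gut usage against mean liver usage, in percent on log axes, of TRBV5 and TRBV2 joined to each J segment, in CD4 and CD8. The solid line marks equal usage and the dotted line a gut level at 0.5 of the liver level. On the full total, all 12 CD4 pairs of each member lie below the solid line.

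The clonotypes listed in the most libraries, and the most frequent ones, illustrate these junctions. Capitals mark the bases listed between the end of V and the start of J, and frequencies are percentages of all deposited frequency. The first 4 are shown because they were listed in the most libraries for their segment and table, and 3 of them kept all 17 germline bases. The last 3 are shown because each owes its rank to a single library.
CD4 TRBV5-TRBJ1-1, 15 of 15 libraries: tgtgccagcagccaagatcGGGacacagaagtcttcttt
CD4 TRBV2-TRBJ2-5, 13 of 15 libraries: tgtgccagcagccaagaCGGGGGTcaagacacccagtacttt
CD8 TRBV5-TRBJ2-7, 15 of 15 libraries: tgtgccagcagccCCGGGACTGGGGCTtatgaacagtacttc
CD8 TRBV2-TRBJ2-7, 14 of 15 libraries: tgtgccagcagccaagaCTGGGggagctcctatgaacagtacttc
CD4 TRBV5-TRBJ2-2, 1 of 15 libraries: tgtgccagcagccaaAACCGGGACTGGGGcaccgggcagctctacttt
CD4 TRBV2-TRBJ2-5, 2 of 15 libraries: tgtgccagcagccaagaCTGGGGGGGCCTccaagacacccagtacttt
CD8 TRBV5-TRBJ1-3, 7 of 15 libraries: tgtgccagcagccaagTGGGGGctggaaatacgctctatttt

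The CD4 TRBV5-TRBJ1-1 clonotype, of 13 residues with 3 bases listed between V and J, was also the most frequent CD4 TRBV5 clonotype of day 6. Its listed V stretch runs to 19 bases, past the 17 germline bases of TRBV5. The bases listed between V and J thus need not hold every base outside the germline segments. The frequency of this clonotype ran from 0.00937% to 0.0861% in the donors, from 0.0318% to 0.0784% in the liver and from 0.0012% to 0.0577% in the gut. The gut and liver values overlapped, and the low gut values were those of STAT3ko gut 2 and STAT3koPD-1ko gut 2. The same CDR3 was labelled TRBV2 in the CD8 table. The widely listed CD4 TRBV2-TRBJ2-5 clonotype ran from 0.0019% to 0.0252% in the liver and from a listed 0 in 2 gut libraries to 0.00513%, and was TRBV5 in the CD8 table.

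The CD8 TRBV5-TRBJ2-7 clonotype, of 14 residues, was listed in every library, from 0.00306% to 0.0222% in the donors, from 0.00597% to 0.0885% in the liver and from 0.0105% to 0.042% in the gut. It was labelled TRBV15 in the CD4 table. The CD8 TRBV2-TRBJ2-7 clonotype reached 0.0306% in the donors, 0.0116% in the liver and 0.00699% in the gut, and was TRBV5 in the CD4 table. The CD4 TRBV5-TRBJ2-2 clonotype stood at 0.331% in STAT3koPD-1ko liver 2 and was listed at 0 in the other libraries. The more frequent CD4 TRBV2-TRBJ2-5 clonotype stood at 0.191% in STAT3koPD-1ko gut 1 and at 0.000504% in STAT3koPD-1ko liver 2. The CD8 TRBV5-TRBJ1-3 clonotype stood at 0.245% in STAT3koPD-1ko gut 1 and at no more than 0.0152% in the 6 other libraries that listed it.

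Across the 15 libraries the segment whose usage followed CD4 TRBV5 most closely was TRBV2 (Pearson r = 0.88), followed by TRBV29 (r = 0.88) and TRBV14 (r = 0.81), of 20 other segments. CD4 TRBV2 was closest to TRBV5, TRBV1 (r = 0.78) and TRBV29 (r = 0.77). Both ran most strongly against TRBV26 (r = -0.91 each). In CD8, TRBV5 was closest to TRBV19 (r = 0.70), TRBV29 (r = 0.52) and TRBV2 (r = 0.46), and TRBV2 to TRBV29 (r = 0.78), TRBV19 (r = 0.74) and TRBV13-2 (r = 0.65), of 17 others. These correlations are descriptions. The points share a total within each library and the labels of TRBV5 and TRBV2 share CDR3s, and in CD4 the points fall into liver and gut libraries by the selection above.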

How the data were processed

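TCR libraries were prepared with the SMARTer mouse TCR a/b kit from sorted donor T cells and sequenced on a MiSeq. The authors assigned segments and CDR3s with MiXCR at default settings and merged libraries by CDR3 amino acid sequence with VDJtools, separately for each chain and cell type, and the submitters' processing notes name mm10. The deposited values are the fraction of a library's reads held by each clonotype. Listed clonotypes occur in at least 2 joined libraries (up to 18, of which 15 are columns here), so rarer clonotypes are absent and coverage differs between libraries. The study's methods mention batches but tie none to a library, so batch was not modelled. The alpha chain tables were not used here.

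Usage was computed in Python 3.11.15 (pandas 2.3.3) as the percentage of listed frequency. Models covered segments averaging 0.5% usage or more (21 in CD4, 18 in CD8). They used log2(percent + 0.1) and limma 3.58.1 (R 4.3.3), with Benjamini-Hochberg adjustment over segments and a threshold of 0.05. Fold changes on this scale understate changes of little-used segments. The day 6 contrast, planned as a test and given as a description because its libraries chose the members, used 15 libraries with site and genotype as terms, the genotype contrasts 12 with tissue as a term, and the interaction both. Features of members were compared with those of the other segments within each library by exact sign-flip tests, checked on simulated data. Mean clonotype frequency, planned as such a test, is given as a description because it holds usage. Alternatives changed the total, the listed share, the weighting, the filters, the pseudocount and the libraries used, and added a replicate block. Summing both members, leaving out CDR3s with conflicting labels and using the liver alone as day 6 were chosen after seeing the data. Members and lists were chosen with earlier results of these data known. Segments were named by rule: the members, TRBV26 and TRBV23, the neighbours TRBV1, TRBV3 and TRBV4, the 3 most correlated segments, the 2 J segments furthest above and below other segments in share, and per member and table the 2 most frequent and the most widely listed clonotypes. TRBV13-2, TRBV14, TRBV16 and TRBV20 were named outside it, after their values were seen. Of the clonotypes named by the rule, those that add sequences of interest are printed. Germline sequences come from the GRCm38 genome with GENCODE annotation.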

Additional observations from a re-analysis of the deposited data

Results flagged for a closer look

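In CD8 gut libraries the mean frequency of a TRBV5 clonotype was 0.00743% in STAT3ko gut 2, against 0.00220% to 0.00379% in the other 5. Its gap to the nearest library, as a fraction of the range of the 6 libraries, was 0.696, above Dixon's critical value. Of 40 groups of libraries tested this way 1 stood out, and chance alone marks about 1 group in 20. STAT3ko gut 2 was among the libraries whose listed clonotypes covered 47.8% to 58.0% of the deposited frequency, and the part of that coverage in the value was not tested.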

How the results depend on the processing

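Over all alternatives, 1088 of 1239 recomputed values kept the direction and the side of the threshold of the reported one, or stayed within the spread between libraries. Usage values are on the log2 scale, CDR3 length in residues, TRBJ2 share in points, and bases between V and J in bases. Gut minus liver values stayed below 0 for both members in both tables under every alternative run. With TRBV26 and TRBV23 left out of the total, the day 6 minus before HCT value was -0.26 for TRBV2 in CD4 (adjusted p = 0.138) and -0.32 for TRBV5 in CD4 (adjusted p = 0.122), the gut minus liver value -0.38 for TRBV2 in CD4 and -0.56 for TRBV5 in CD4, the tissue by genotype, STAT3koPD-1ko minus WT value 0.12 for TRBV2 in CD4. Without division by the listed share, the STAT3koPD-1ko minus WT value was 0.42 for TRBV2 in CD8 (adjusted p = 0.924), the gut minus liver value -1.28 for TRBV2 in CD4, -0.81 for TRBV2 in CD8, -1.46 for TRBV5 in CD4 and -0.90 for TRBV5 in CD8, the tissue by genotype, STAT3koPD-1ko minus WT value -0.057 for TRBV2 in CD8. With each clonotype counted once, the CDR3 length value was -0.103 for TRBV5 in CD8 (adjusted p = 0.270), the TRBJ2 share value 0.714 for TRBV2 in CD4, 2.78 for TRBV5 in CD4 (adjusted p = 0.0124) and 0.212 for TRBV5 in CD8, the STAT3koPD-1ko minus STAT3ko value -0.051 for TRBV5 in CD4, the STAT3koPD-1ko minus WT value 0.13 for TRBV2 in CD8 (adjusted p = 0.947) and -0.031 for TRBV5 in CD4, the gut minus liver value -0.32 for TRBV5 in CD4 and -0.19 for TRBV5 in CD8, the tissue by genotype, STAT3ko minus WT value 0.0020 for TRBV2 in CD8 and -0.052 for TRBV5 in CD8, the tissue by genotype, STAT3koPD-1ko minus STAT3ko value -0.24 for TRBV2 in CD8 and 0.24 for TRBV5 in CD4, the tissue by genotype, STAT3koPD-1ko minus WT value -0.24 for TRBV2 in CD8 and 0.023 for TRBV5 in CD4. With only CDR3s that run from cysteine to phenylalanine or tryptophan, the CDR3 length value was 0.531 for TRBV2 in CD4 and 0.64 for TRBV5 in CD4, the TRBJ2 share value -3.71 for TRBV5 in CD4 (adjusted p = 0.0332), the STAT3ko minus WT value -0.0039 for TRBV2 in CD4, the gut minus liver value -0.53 for TRBV2 in CD4 and -0.71 for TRBV5 in CD4, the tissue by genotype, STAT3koPD-1ko minus WT value 0.023 for TRBV2 in CD4, the bases between V end and J start value 0.287 for TRBV2 in CD8, 0.253 for TRBV5 in CD4 and 0.304 for TRBV5 in CD8, the mean clonotype frequency value -0.19 for TRBV5 in CD8 (adjusted p = 0.0332). With only clonotypes listed in at least 3 libraries, the TRBJ2 share value was 0.588 for TRBV2 in CD4, the STAT3ko minus WT value -0.19 for TRBV2 in CD4, the STAT3koPD-1ko minus STAT3ko value 0.10 for TRBV5 in CD8, the tissue by genotype, STAT3ko minus WT value 0.039 for TRBV2 in CD4, the tissue by genotype, STAT3koPD-1ko minus STAT3ko value -0.28 for TRBV2 in CD4, the bases between V end and J start value -0.509 for TRBV2 in CD8 (adjusted p = 0.114), the mean clonotype frequency value -0.18 for TRBV5 in CD8 (adjusted p = 0.0345). Without the 10 most frequent clonotypes of each library, the TRBJ2 share value was -2.59 for TRBV5 in CD8 (adjusted p = 0.101), the tissue by genotype, STAT3koPD-1ko minus WT value 0.027 for TRBV2 in CD4. With TRBV26 and TRBV23 left out of the other segments, the CDR3 length value was 0.582 for TRBV2 in CD4 and 0.698 for TRBV5 in CD4, the TRBJ2 share value -4.26 for TRBV5 in CD4 (adjusted p = 0.0206), the bases between V end and J start value 0.225 for TRBV2 in CD8, 0.123 for TRBV5 in CD4 and 0.24 for TRBV5 in CD8, the mean clonotype frequency value -0.19 for TRBV5 in CD8 (adjusted p = 0.0423). With a pseudocount of 1, the STAT3koPD-1ko minus WT value was 0.22 for TRBV2 in CD8 (adjusted p = 0.0708). With the replicate number as a block, the STAT3koPD-1ko minus STAT3ko value was 0.44 for TRBV2 in CD8 (adjusted p = 0.0338), the day 6 minus before HCT value -0.35 for TRBV2 in CD8 (adjusted p = 0.0231). With the liver libraries alone as day 6, the day 6 minus before HCT value was -0.16 for TRBV2 in CD4 (adjusted p = 0.331), -0.13 for TRBV5 in CD4 (adjusted p = 0.167) and 0.13 for TRBV5 in CD8. With both members summed, the STAT3koPD-1ko minus STAT3ko value was 0.033 for TRBV5 in CD8. Without CDR3s listed under another V segment in the other table, the TRBJ2 share value was 0.831 for TRBV2 in CD4 and 0.374 for TRBV5 in CD4, the STAT3ko minus WT value -0.050 for TRBV2 in CD4 and -0.036 for TRBV2 in CD8, the STAT3koPD-1ko minus WT value 0.43 for TRBV2 in CD8 (adjusted p = 0.262), the tissue by genotype, STAT3koPD-1ko minus WT value -0.076 for TRBV2 in CD8.

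With each library left out in turn, the TRBJ2 share value ranged from -3.37 to 1.74 for TRBV2 in CD4, -2.89 to -1.62 for TRBV5 in CD4, the STAT3ko minus WT value ranged from -0.078 to 0.091 for TRBV2 in CD4, -0.017 to 0.16 for TRBV2 in CD8, the STAT3koPD-1ko minus STAT3ko value ranged from 0.34 to 0.50 for TRBV2 in CD8, -0.011 to 0.22 for TRBV5 in CD4, -0.093 to 0.050 for TRBV5 in CD8, the STAT3koPD-1ko minus WT value ranged from 0.43 to 0.60 for TRBV2 in CD8, the day 6 minus before HCT value ranged from -0.43 to -0.24 for TRBV2 in CD8, the tissue by genotype, STAT3ko minus WT value ranged from -0.35 to 0.095 for TRBV2 in CD4, the tissue by genotype, STAT3koPD-1ko minus STAT3ko value ranged from -0.027 to 0.23 for TRBV2 in CD4, -0.41 to 0.054 for TRBV5 in CD4, the tissue by genotype, STAT3koPD-1ko minus WT value ranged from -0.25 to 0.20 for TRBV2 in CD4, -0.17 to 0.30 for TRBV2 in CD8, -0.28 to 0.043 for TRBV5 in CD8, the mean clonotype frequency value ranged from -0.19 to -0.11 for TRBV5 in CD8. The number of segments called between day 6 and before HCT, 14 in CD4, was 5 with TRBV26 and TRBV23 left out of the total, 7 with CDR3s from cysteine to phenylalanine or tryptophan and 2 with the liver libraries alone. In CD8 it was 2, and 5 with the replicate block, 1 with each clonotype counted once or with no filter on low usage, and 0 without division by the listed share, without the 10 most frequent clonotypes, without conflicting labels, without the liver libraries of number 1 or with the liver alone. The CD8 count for STAT3koPD-1ko minus WT, 1, was 2 with TRBV26 and TRBV23 left out, with CDR3s from cysteine to phenylalanine or tryptophan or with no filter, and 0 without division by the listed share, with each clonotype counted once, with clonotypes in at least 3 libraries, with both members summed, without conflicting labels or with a pseudocount of 1. Genotype counts of 0 became 1 in CD4 STAT3koPD-1ko minus STAT3ko with no filter, in CD4 STAT3koPD-1ko minus WT with clonotypes in at least 3 libraries or without the 10 most frequent clonotypes, and in CD8 STAT3koPD-1ko minus STAT3ko with the replicate block. With each library left out in turn, the count between day 6 and before HCT ran from 6 (without the STAT3koPD-1ko donor library) to 15 in CD4 and from 0 to 5 in CD8, and that for STAT3koPD-1ko minus WT in CD8 from 0 to 3. The cause of these changes was not tested. Libraries with the same replicate number deviated together in some pairs of groups and not in others (correlations of deviations from -0.45 to 0.50 in CD4 and from -0.17 to 0.87 in CD8, above 0.1 in 6 and 9 of 15 pairs of groups). Since no label says what the number marks and not every pair was above 0.1, the replicate block is given as an alternative alone. It moved no call of a member other than those printed above. CD8 TRBV2 fell under the usage filter with clonotypes in at least 3 libraries, and mean clonotype frequency has no value with each clonotype counted once. The p-values of day 6 minus before HCT and of mean clonotype frequency draw on the libraries that chose the members and support nothing. The low listed share of the gut libraries with replicate number 2 limits what their clonotype counts can show.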
